A study of Mus musculus with 16 samples.

Results

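The 10 genes examined here encode serine/arginine-rich (SR) and SR-like splicing factors, a family known for poison exons and related splicing events in its own RNAs: Srsf1, Srsf2, Srsf3, Srsf4, Srsf5, Srsf6, Srsf7, Srsf11, Tra2a and Tra2b. They were taken by name, and every transcript of theirs in both deposited matrices was kept, 84 of 142435 transcripts and 10 of 55266 genes. RNA had been measured in frontal cortex (FC) and cerebellum (Cere) of adult mice without functional Upf3b (Upf3b-KO) and of Ctrl littermates, with 4 libraries for each region and genotype and no treatment. The allele behind the loss of Upf3b and the strain, exact age and sex of the mice are not given in the sources used here. One cerebellar Upf3b-KO library, replicate 1, held only 64981 counts, so the main comparisons used the other 15 libraries and 3 Upf3b-KO libraries in cerebellum.

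SR proteins bind short sequences in exons through RNA recognition motifs and help the spliceosome choose them, and their arginine- and serine-rich tails are phosphorylated by the Clk and Srpk kinases. Many SR genes limit their own output. When the protein is abundant it promotes inclusion of an exon, or removal of an intron, that places a stop codon upstream of an exon junction, and the RNA is then a substrate of nonsense-mediated RNA decay (NMD). Upf3b is one of the proteins that link the exon junction complex to the decay machinery. In the annotation such RNAs carry the transcript type nonsense_mediated_decay, called the decay type below, beside the types protein_coding and retained_intron.

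The bases around the stop codon of the most abundant decay-type transcript are shown for 8 members, because this is where the reading frame of the decay form ends. Each line gives 30 bases of GRCm39 from 5′ to 3′ on the strand of the gene, with the stop codon in capitals.
Srsf1: aatgctttggatTAAggattgtggagcaca
Srsf3: ctcaccaccctcTGAatctgcattagccag
Srsf4: catgccccagctTAGagtgcttcaccctac
Srsf6: gccttttgccatTAGacgcagggtgatggt
Srsf7: agtcagtcgcctTGAttcagaatgtcacga
Srsf11: cctggttcagccTGAactatataccaggcc
Tra2a: agattggtcagaTAGaagcacttgaatatt
Tra2b: ctcaggaataagTGAagctgaaatttgaaa

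For 7 of these 8 members the stop lay in an exon that had no overlap with any exon of the most abundant coding transcript of the gene. In Srsf3, which encodes a small SR protein, it was exon 4 of 7 of ENSMUST00000037776, 456 nt at chr17:29258428-29258883 on the plus strand, with the stop at 29258459 to 29258461. The reading frame of that transcript ended after 124 residues, against 164 in the coding transcript ENSMUST00000130216. In Tra2b, an SR-like activator related to the fly factor Transformer-2, it was exon 2 of 10 of ENSMUST00000162413, 276 nt at chr16:22077736-22078011 on the minus strand, and the frame ended after 38 residues against 288 in the coding transcript. The paralog Tra2a had a 306 nt exon at chr6:49229737-49230042 on the minus strand, exon 2 of 9. Srsf6 had a 268 nt exon at chr2:162774735-162775002 on the plus strand, exon 3 of 7. Srsf7, an SR protein with a zinc knuckle, had a 460 nt exon at chr17:80512051-80512510 on the minus strand, exon 4 of 9. Srsf11 had a 109 nt exon at chr3:157729760-157729868 on the minus strand, exon 4 of 9. Srsf4 had a 188 nt exon at chr4:131611606-131611793 on the plus strand, and there the annotated transcript ENSMUST00000134943 begins within this exon. The exception was Srsf1, a general splicing activator, whose 119 nt exon at chr11:87940803-87940921 on the plus strand lies inside the last exon of the coding transcript ENSMUST00000139129. The exon with the stop had a length that is a multiple of 3 in 3 of the 8, Srsf3, Tra2a and Tra2b.

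**Figure D1:**
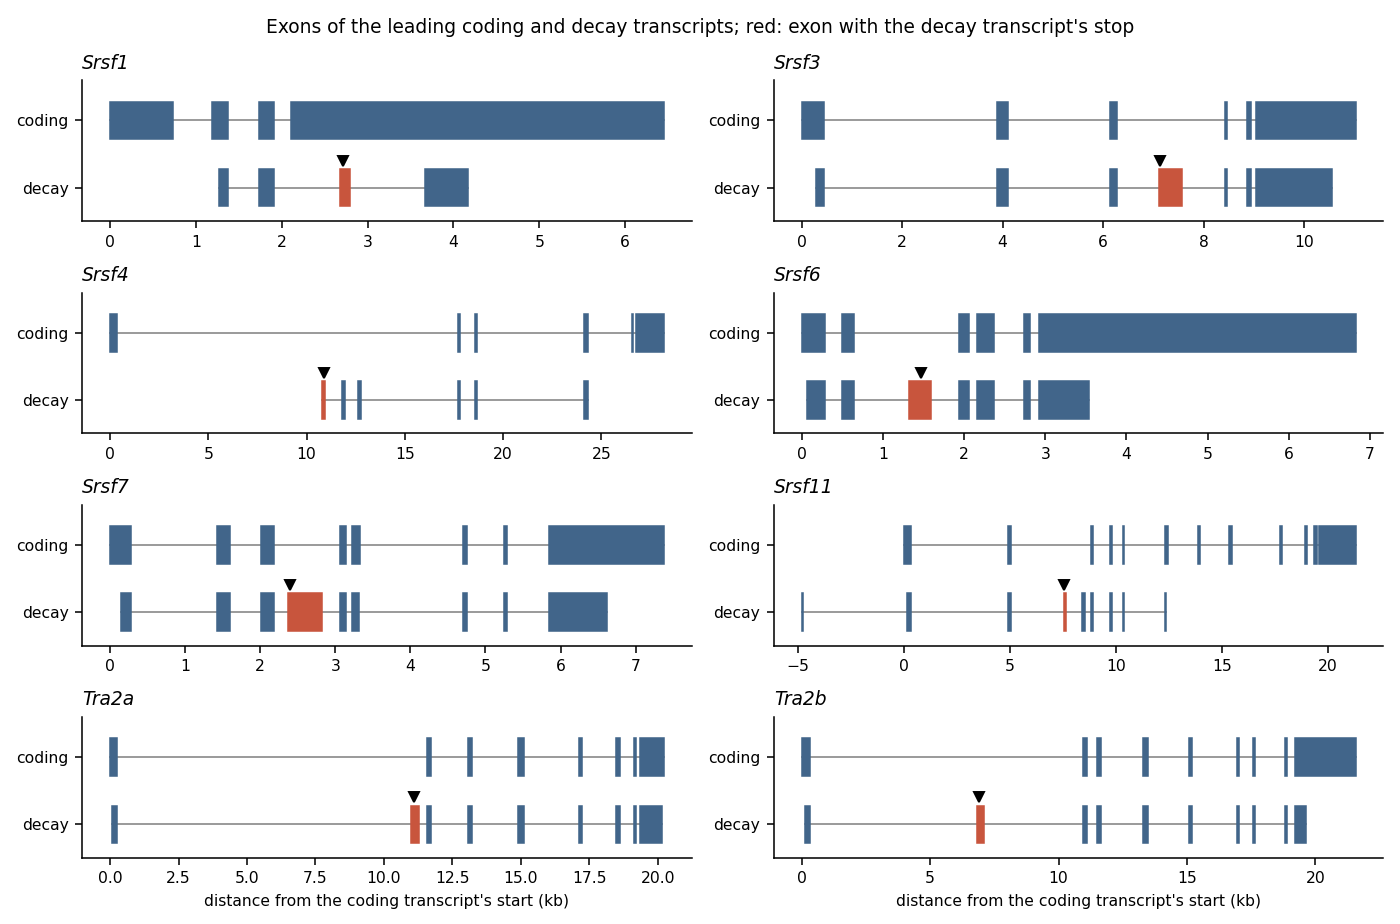
Exons of the most abundant coding (upper row) and decay-type (lower row) transcript of 8 members, as distance in kb from the start of the coding transcript. Red marks the exon with the stop codon of the decay-type transcript and the triangle its position. In 7 genes the red exon falls in an intron of the coding transcript, and in Srsf1 it falls inside the last coding-transcript exon.

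Srsf2, which encodes the SR protein also called SC35, is built differently. Its most abundant decay-type transcript, ENSMUST00000176834, uses the same stop codon as the coding transcript ENSMUST00000092404, at 116742854 to 116742856 of chromosome 11 on the minus strand. The coding transcript keeps a 502 nt stretch that begins 1172 bases of genome downstream of that stop, at chr11:116741180-116741681, while all 5 other deposited Srsf2 transcripts splice it out. The ends of this stretch are shown because its removal separates the forms, with the intron's outermost bases in capitals.
Srsf2 donor: ctggctattaaaaagGTtattttgtaacat
Srsf2 acceptor: atttttgtgcactAGgcgcagttgtgtagc

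The deep libraries held between 27660078 and 35238677 counts, so that a floor of 3 counts, which covers counting error only, was at most 0.108 CPM (counts scaled to the library total). Upf3b fell from 14.8 ± 0.64 to 0.559 ± 0.26 CPM (SD, n = 4 and 4) in FC and from 22.7 ± 1.2 to 0.737 ± 0.20 CPM (SD, n = 4 and 3) in Cere. Libraries of a group were close to each other, with a median coefficient of variation between them of 6.16% per gene in FC and 6.03% in Cere (edgeR's biological coefficient of variation), and of 2.98% and 2.95% over genes above 16 CPM, where all members lie. The labels do not tie a library to a mouse, so it is not known how much of the spread between mice these values hold, and the p-values below measure the spread between libraries, which may be technical. Markers of other cells differed between the genotypes. Summed choroid plexus markers, 8 of 8 higher in both regions and none at 0, rose from 20.9–22.1 to 2188–2247 CPM in FC and from 31.4–35.8 to 1401–1426 CPM in Cere, and 7 of 8 male germ cell markers were over 2-fold higher in FC, summing to 25.6–30.3 CPM in Ctrl and 172–180 CPM in Upf3b-KO. In Cere 6 of the 8 germ cell markers were higher, summing to 3.48–4.47 and 13.2–15.1 CPM. Astrocyte markers were lower in both regions, 4 of 4, from 2439–2472 to 1939–1954 CPM in FC and from 4001–4055 to 2501–2525 CPM in Cere. In FC, 7 of 7 striatal neuron markers were higher, from 145–157 to 746–759 CPM, and oligodendrocyte markers, 4 of 4 higher, went from 5552–5617 to 7356–7409 CPM. The striatal list was mixed in Cere, with 4 higher and 1 lower, and its sum went from 368–380 to 317–328 CPM. Cortical excitatory neuron markers were lower for 4 of 5 in FC, from 1527–1589 to 1430–1446 CPM. They were lower for 3 of 4 tested in Cere, from 540–565 to 332–341 CPM. Microglia markers were 1 higher and 1 lower of 4 in FC and 3 higher in Cere. In Cere, granule cell markers, 5 of 5 lower, went from 3345–3372 to 1752–1762 CPM, Purkinje cell markers, 4 of 4 lower, from 6537–6673 to 2457–2475 CPM, and oligodendrocyte markers, 4 of 4 higher, from 4656–4757 to 10537–10629 CPM. Bulk values cannot tell fewer cells of a type from less RNA per cell, and the part of these differences in the results below was not tested.

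All 10 members were expressed in every deep library. On the TPM scale, which corrects for transcript length, Srsf5 was the most abundant in Ctrl FC at 278 ± 4.8 (SD, n = 4), followed by Srsf3 at 187 ± 0.46, Srsf7 at 116 ± 4.5 and Srsf1 at 106 ± 4.3. Srsf11, Srsf2 and Tra2b stood at 86.3 ± 1.7, 84.6 ± 6.0 and 83.0 ± 3.9 TPM and their libraries overlapped. Srsf4 (52.4 ± 2.0), Srsf6 (39.7 ± 2.5) and Tra2a (32.6 ± 0.98) followed without overlap of neighbours. In Ctrl Cere the levels ran from 382 ± 2.3 TPM for Srsf5 to 36.2 ± 2.1 for Tra2a, with Srsf3 at 287 ± 3.5. There Srsf7 (178 ± 4.8) overlapped with Srsf1 (178 ± 8.7), and Tra2b (135 ± 5.8) and Srsf11 (121 ± 4.0) each overlapped with Srsf2 (129 ± 3.9).

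In Ctrl mice, 9 of 10 members were higher in Cere than in FC, against a background of 37.8% of all 17521 genes tested (edgeR's quasi-likelihood test, adjusted p under 0.05). The log2 differences of the 9 ran from 0.32 for Srsf6 to 0.60 for Tra2b and Srsf1, with a median of 0.42 over the members and −0.01 over all genes. Tra2a differed by 0.07 (SE 0.05) and did not pass, while with libraries scaled to their totals it differed by 0.12 and passed (edgeR adjusted p = 0.0250). Both regions came from the same groups of mice, and the fit took the libraries as independent. With the replicate number as a block the count was also 9, but the labels do not say that equal numbers mark the same mouse. That block therefore cannot account for shared mice. Since granule cells make up most neurons of the cerebellum, the regions differ in their mix of cells, and the part of that mix was not tested.

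At the level of whole genes, loss of Upf3b was accompanied by modest changes that differed between the regions. In FC, 2 members were higher (background 28%) and 5 lower (background 25.3% of 18218 genes). Srsf2 fell most, from 79.0, 74.1, 70.6 and 75.7 CPM in Ctrl to 51.4, 50.7, 49.9 and 52.4 CPM in Upf3b-KO, a log2 fold change of −0.63 (SE 0.03, edgeR quasi-likelihood adjusted p = 1.48e-12). Srsf4, which carries a pair of RNA recognition motifs and a long tail, was higher, with 44.8, 48.3, 46.2 and 47.3 CPM in Ctrl and 63.4, 65.2, 70.8 and 64.8 CPM in Upf3b-KO (0.43, SE 0.04, edgeR adjusted p = 2.41e-09). For both genes the groups did not overlap. Srsf3 fell by 0.23 (SE 0.02) and Srsf11 was higher by 0.08 (SE 0.03), a call that was lost without Upf3b-KO replicate 1 or Ctrl replicate 2 (edgeR adjusted p 0.0571 and 0.0541). That of Tra2a was lost without Upf3b-KO replicate 4 or Ctrl replicate 2 or 3 (edgeR adjusted p 0.121, 0.0606 and 0.0638). Srsf1, Tra2a and Tra2b each fell by 0.14 on the log2 scale with TMM scaling, edgeR's correction for differences in composition, and with libraries scaled to their totals these calls were lost (edgeR adjusted p 0.0543, 0.342 and 0.123). That scaling left 4 calls, 2 higher and 2 lower. Srsf5, Srsf6 and Srsf7 lay within 0.04 of 0 and did not pass, and their sign turned positive with the library totals.

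In Cere all 10 members passed, 9 lower (background 31.3% of 17785 genes) and 1 higher (background 33.1%). Srsf3 fell from 321, 327, 328 and 323 CPM in Ctrl to 225, 224 and 226 CPM in Upf3b-KO replicates 2 to 4, by 0.58 on the log2 scale (SE 0.02, edgeR adjusted p = 1.09e-15), and the groups were far apart. The falls of Srsf2 (0.47), Tra2b (0.46) and Srsf1 (0.46) were next, then Srsf7 (0.36), Srsf5 (0.35), Srsf11 (0.22), Tra2a (0.21) and Srsf6 (0.17). Srsf4 was higher by 0.09 (SE 0.04, edgeR adjusted p = 0.0262), and the call was lost without Ctrl replicate 2 or 3 or Upf3b-KO replicate 2 (edgeR adjusted p 0.0691, 0.0858 and 0.120). The median over the members was −0.35, beside 0.01 over all genes, and in FC it was −0.09 beside 0.00. No member changed by more than 2-fold in either region.

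**Figure D2:**
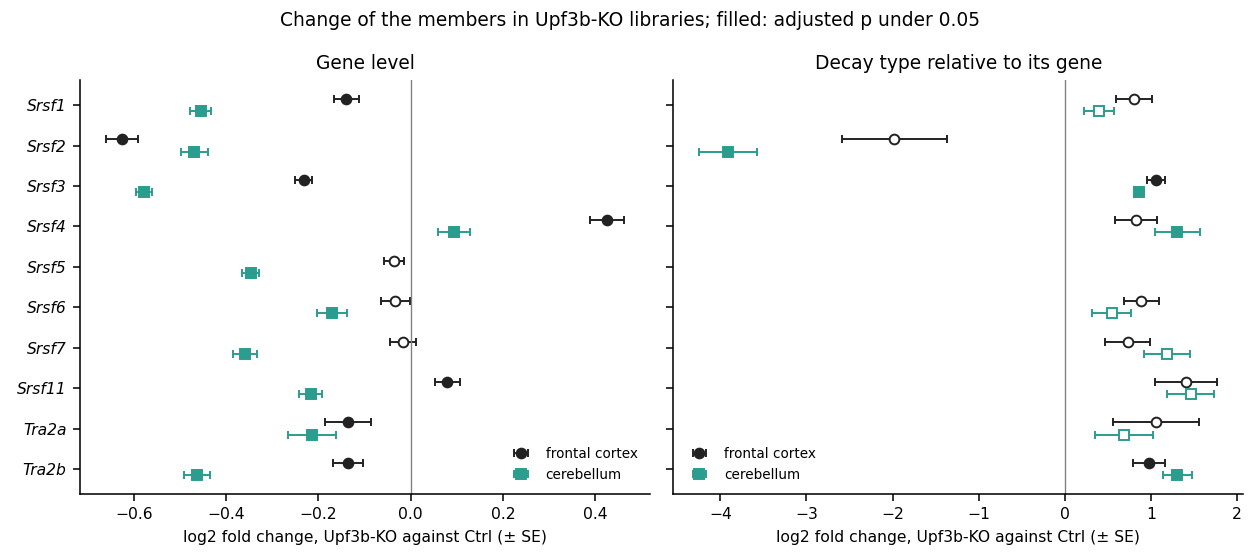
Log2 fold change of Upf3b-KO against Ctrl (± SE) for the 10 members, at gene level on the left and for the decay type relative to its gene on the right. On the right the SE can be smaller than the error behind the p-value. Circles are FC and squares Cere, and filled symbols passed an adjusted p of 0.05. At gene level the cerebellar symbols lie further left for 9 members and further right for Srsf2. On the right all tested members but Srsf2 lie above 0. Srsf5 has no point on the right.

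The difference of the genotype effect between the regions was tested as an interaction at gene level, a test added after seeing the data. It passed for 9 of 10 members, 8 with a lower effect in Cere (background 23.8% of 19831 genes) and Srsf2 with a higher one (background 24.2%). The interaction of the 8 ran from −0.36 for Srsf3 to −0.15 for Srsf6, and that of Srsf2 was 0.15 (SE 0.05). The call of Srsf6 was lost without Upf3b-KO Cere replicate 3 (edgeR adjusted p = 0.0798). Tra2a gave −0.09 (SE 0.07) and did not pass. This fit also took the libraries of both regions as independent, and with the replicate number as a block 9 members passed. Since the number is not known to mark the mouse, the block does not account for shared mice.

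The share of a gene's counts on its decay type is the value that speaks most directly to the poison exons. The mean share was higher in Upf3b-KO in 9 of 10 members in FC (background 64.8%) and in Cere (background 64%). One of the 9 was Srsf5, whose decay type lay below the filter on low counts, and for the 8 members other than Srsf2 and Srsf5 the ratio of the means ran from 1.32 to 2.74. All Upf3b-KO libraries lay above all Ctrl libraries for 6 members in FC (background 11.1% of 1994 genes with a tested decay type) and for 5 in Cere (background 15.5% of 2164), while for Srsf2 alone the highest Upf3b-KO value was under the lowest Ctrl value (background 2.41% and 4.02%). Over the 10 members summed, the decay type held 4.20% ± 0.57 (SD, n = 4) of the counts in Ctrl FC and 7.46% ± 0.53 (SD, n = 4) in Upf3b-KO FC. In Cere it held 4.41% ± 0.38 (SD, n = 4) and 7.51% ± 0.31 (SD, n = 3). Protein-coding transcripts went from 85.9% ± 0.45 to 80.8% ± 0.57 of the summed counts in FC and from 85.6% ± 0.32 to 81.1% ± 0.41 in Cere.

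Usage of each type was tested against the other types of the same gene with edgeR's diffSpliceDGE over all genes. The decay type passed higher for 2 of 9 tested members in FC (background 3.86%) and for 3 of 9 in Cere (background 3.19%), and passed lower for none in FC (background 0.451%) and for Srsf2 in Cere (background 0.832%). Before adjustment, 8 of the 9 in FC (background 15.8%) and 6 of the 9 in Cere (background 15.9%) had p under 0.05. With limma's diffSplice in its place, 7 members passed higher and 1 lower in FC (backgrounds 10.8% and 2.16%), and 5 higher and 1 lower in Cere (backgrounds 11.7% and 2.87%). The median relative log2 change over the 9 was 0.89 in FC and 0.87 in Cere, beside 0.17 and 0.17 over all decay types tested.

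Srsf3 passed for the decay type in both regions and in each alternative that was run. Only 0.236% of the 50-base stretches of its leading decay-type transcript occur in no other member transcript, so its share rests on the estimation model. For the leading decay-type transcripts of Srsf1, Srsf4, Srsf6, Srsf7, Srsf11, Tra2a and Tra2b that part ran from 2.91% (Srsf6) to 17.25% (Tra2a). The decay type of Srsf3 took 8.98%, 8.43%, 11.5% and 7.94% of the gene's counts in Ctrl FC and 18.0%, 17.4%, 23.98% and 17.8% in Upf3b-KO FC. In Cere it took 10.8%, 11.7%, 9.93% and 12.2% in Ctrl and 19.6%, 20.9% and 20.7% in Upf3b-KO replicates 2 to 4. The groups were apart in both regions, and Upf3b-KO FC replicate 3 stood above its group. The relative log2 change was 1.06 (SE 0.10, diffSpliceDGE adjusted p = 9.34e-07) in FC and 0.87 (SE 0.05, diffSpliceDGE adjusted p = 3.36e-09) in Cere. The protein-coding type of Srsf3 passed lower with diffSpliceDGE, by 0.20 in FC (background 0.349%) and by 0.17 in Cere (background 0.385%), and no other member's did. With limma's diffSplice the protein-coding type passed lower for 7 of 10 members in FC (background 4.88%) and for 5 of 10 in Cere (background 5.04%).

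Tra2b also passed in both regions. Its decay type took 6.21%, 3.55%, 8.35% and 5.27% in Ctrl FC and 9.70%, 12.1%, 12.0% and 12.6% in Upf3b-KO FC. In Cere it took 5.23%, 4.84%, 4.63% and 3.03% in Ctrl and 10.1%, 12.4% and 10.6% in Upf3b-KO. No Upf3b-KO value reached down to a Ctrl value. The relative log2 change was 0.98 (SE 0.18, diffSpliceDGE adjusted p = 1.95e-03) in FC and 1.31 (SE 0.17, diffSpliceDGE adjusted p = 2.13e-05) in Cere. With the counts of the whole gene as offset, a test added after seeing the data, the FC call was lost (edgeR adjusted p = 0.0958).

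Srsf4 held 4.93%, 5.47%, 8.85% and 6.56% of its counts on the decay type in Ctrl FC and 10.8%, 12.8%, 10.7% and 11.6% in Upf3b-KO FC. The Cere values were 4.94%, 5.40%, 3.95% and 5.52% in Ctrl and 12.997%, 12.8% and 11.1% in Upf3b-KO. The groups were apart in both regions. The relative change passed in Cere (1.31, SE 0.26, diffSpliceDGE adjusted p = 0.0104) and not in FC (0.83, SE 0.24, diffSpliceDGE adjusted p = 0.285), where limma's diffSplice called it (0.93, limma adjusted p = 0.0045). The Cere call was lost without Upf3b-KO replicate 2 or 3 (diffSpliceDGE adjusted p 0.0936 and 0.0652) and with the replicate number as a block (diffSpliceDGE adjusted p = 0.0673). Unlike Srsf3 and Tra2b, Srsf4 was higher at the level of the whole gene.

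Srsf1, Srsf6, Srsf7 and Srsf11 had higher mean shares in both regions without passing diffSpliceDGE. For Srsf1 the mean went from 2.72% ± 0.49 to 4.80% ± 0.66 (SD, n = 4 and 4) in FC, without overlap, and from 3.56% ± 0.54 to 4.69% ± 0.83 (SD, n = 4 and 3) in Cere, with overlap. For Srsf6, another SR protein with a pair of recognition motifs, it went from 5.10% ± 1.4 to 9.51% ± 1.0 in FC, without overlap, and from 5.67% ± 1.3 to 8.30% ± 1.6 in Cere, with overlap. Srsf7 had the opposite pattern of overlap. Its FC means were 3.34% ± 1.5 and 5.51% ± 0.84, with overlap, and its Cere means 2.09% ± 0.84 and 4.78% ± 0.63, without. Srsf11, whose decay type is a small part of the gene, went from 0.645% ± 0.17 to 1.72% ± 0.50 in FC and from 0.660% ± 0.14 to 1.81% ± 0.27 in Cere, without overlap in either. These were the largest ratios of mean shares among the members, 2.66 and 2.74. All 4 passed limma's diffSplice in FC (adjusted p between 0.00139 for Srsf6 and 0.0299 for Srsf7), and Srsf7 and Srsf11 passed it in Cere (limma adjusted p 0.00127 and 5.40e-04). Srsf1 also passed in FC with counts divided by transcript length (0.71, diffSpliceDGE adjusted p = 0.0411) and with the gene count as offset (edgeR adjusted p = 0.0438). In Cere, Srsf7 passed without Ctrl replicate 4 (diffSpliceDGE adjusted p = 0.0233) and Srsf11 with the offset (edgeR adjusted p = 0.0311).

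Tra2a and Srsf5 gave no call for the decay type in either region. Tra2a took 6.29%, 2.27%, 2.29% and 1.26% in Ctrl FC and 9.68%, 1.24%, 3.81% and 10.9% in Upf3b-KO FC, so that 1 Upf3b-KO library lay below all Ctrl libraries, 1 among them and 2 above. Its means were 7.10% ± 4.1 and 11.3% ± 3.4 (SD, n = 4 and 3) in Cere. The relative log2 changes of 1.06 (SE 0.50) in FC and 0.69 (SE 0.34) in Cere did not pass. Tra2a had the lowest counts of the members, with group means of 27.4 to 31.1 CPM. The annotated decay type of Srsf5 held at most 0.0737% of the gene's counts in any deep library and fell below the filter on low counts. Srsf5 differed elsewhere, as described below.

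**Figure D3:**
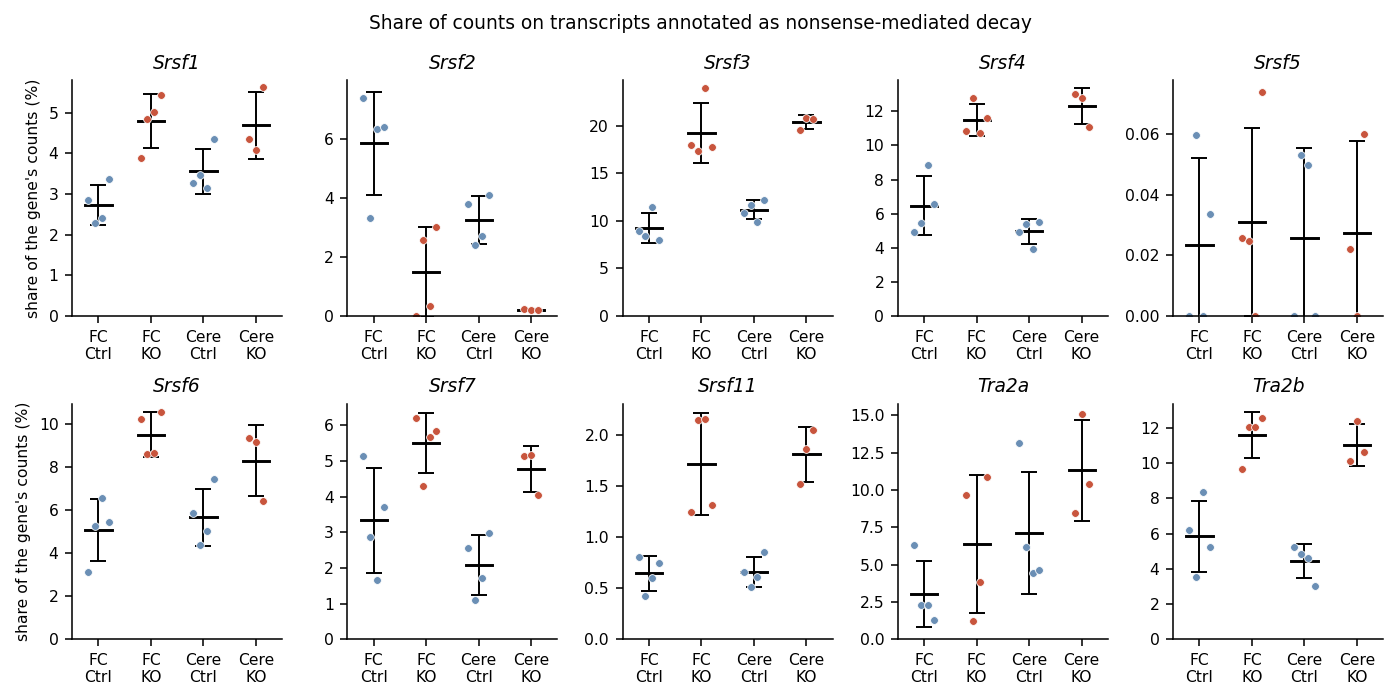
Share of each gene's counts on decay-type transcripts (%) in each deep library of FC and Cere, Ctrl in blue and Upf3b-KO in red, with the group mean and SD (bars cut at 0). Axes differ between genes. Upf3b-KO libraries lie above Ctrl in both regions for Srsf3, Srsf4, Srsf11 and Tra2b, below Ctrl in both for Srsf2, and near 0 throughout for Srsf5.

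Srsf2 went the other way for the decay type and up for its retained_intron type. The decay type held 7.39%, 3.34%, 6.33% and 6.40% of the counts in Ctrl FC and 0, 2.58%, 0.343% and 3.01% in Upf3b-KO FC. In Cere it held 3.79%, 2.42%, 2.72% and 4.10% in Ctrl and 0.223%, 0.197% and 0.205% in Upf3b-KO. The relative log2 change passed in Cere (−3.91, SE 0.34, diffSpliceDGE adjusted p = 4.79e-07) and not in FC (−1.98, SE 0.61, diffSpliceDGE adjusted p = 0.184). With the decay class set by the position of stop codon and last junction in place of the annotated type, the Cere value was −0.74 and the call was lost (diffSpliceDGE adjusted p = 0.867). In FC the annotated type passed with limma's diffSplice (−3.44, limma adjusted p = 0.0119) and with counts divided by transcript length (−2.64, diffSpliceDGE adjusted p = 0.0313). The retained_intron type, a single transcript, rose from 2.55%, 3.62%, 3.55% and 3.12% to 15.3%, 16.4%, 17.3% and 15.8% in FC. In Cere it rose from 3.86%, 3.52%, 3.74% and 2.97% to 15.2%, 16.0% and 16.4%. It passed in both regions, with a relative log2 change of 2.35 (SE 0.43, diffSpliceDGE adjusted p = 2.72e-03) in FC and 2.17 (SE 0.15, diffSpliceDGE adjusted p = 1.64e-08) in Cere, against a background of 0.522% and 0.257% of retained-intron types.

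Despite its label, that transcript, ENSMUST00000138484, splices out the 502 nt stretch downstream of the stop codon whose ends are printed above, and so does the decay-type ENSMUST00000176834. Of the 50-base words of ENSMUST00000176834, 91.6% also occur in ENSMUST00000138484 and all of them occur in some other transcript of the members, so its own share rests on the estimation model. Of the words of ENSMUST00000138484, 57.7% occur in no other member transcript, and 50.4% occur in other genes. When all 5 transcripts that splice out the stretch were summed, a grouping chosen after seeing the values and given without a test, they held 9.94%, 8.50%, 9.87% and 9.52% of Srsf2 counts in Ctrl FC and 17.3%, 20.0%, 20.9% and 18.8% in Upf3b-KO FC. In Cere they held 7.66%, 5.94%, 7.35% and 7.12% in Ctrl and 17.2%, 18.2% and 18.6% in Upf3b-KO. The groups did not overlap on this sum in either region. On the CPM scale the sum went from 7.08 ± 0.64 to 9.83 ± 0.67 in FC and from 8.16 ± 0.76 to 15.7 ± 0.35 in Cere. The coding transcript ENSMUST00000092404 went from 67.8 ± 3.1 to 41.3 ± 1.5 CPM in FC and from 108 ± 3.1 to 71.4 ± 2.6 CPM in Cere, a log2 fold change of −0.78 (SE 0.04) and −0.60 (SE 0.04). Whether counting used the strand is not stated, and 77.6% of the 50-base words of the coding transcript occur in Mettl23 on the opposite strand. Mettl23 differed by −0.14 (SE 0.06, edgeR adjusted p = 0.0642) in FC and −0.34 (SE 0.09, edgeR adjusted p = 2.37e-03) in Cere, at 15.4 and 14.2 CPM in Ctrl, and without strand the reads of both genes cannot be told apart. Mfsd11, also on the opposite strand, differed by 0.10 (SE 0.06, edgeR adjusted p = 0.165) in FC and 0.21 (SE 0.05, edgeR adjusted p = 2.09e-03) in Cere, with group means of 29.8 to 38.7 CPM.

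**Figure D4:**
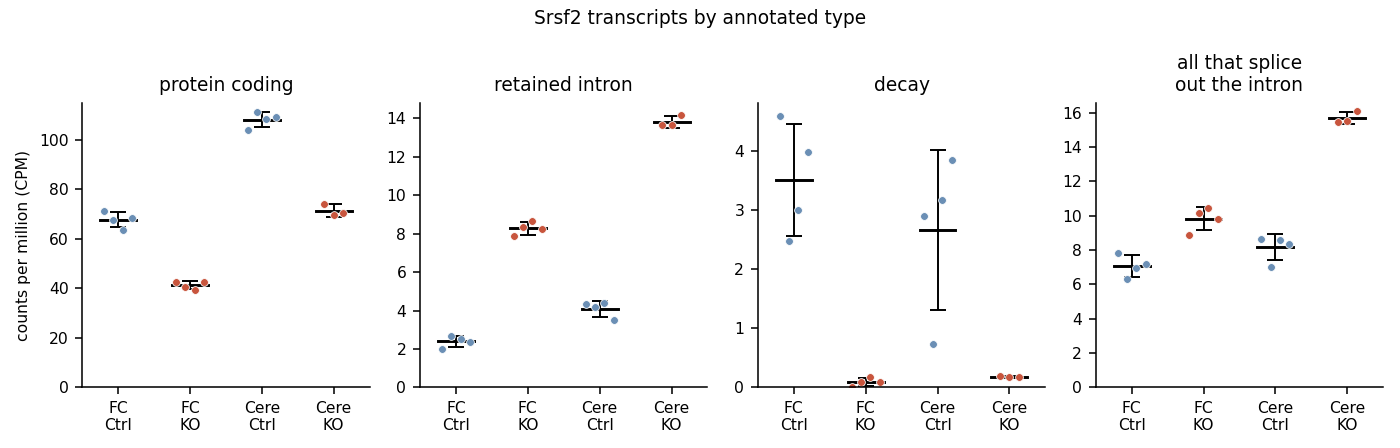
Srsf2 transcripts in each deep library (CPM), with group mean and SD (bars cut at 0). From left to right, the coding transcript falls in Upf3b-KO, the transcript annotated as retained intron rises, the leading decay-type transcript falls to near 0, and the sum of all forms that splice out the stretch downstream of the stop is higher in Upf3b-KO in both regions.

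Among the retained_intron types of the other members, diffSpliceDGE called that of Srsf5 in Cere and no other. It held 18.6%, 19.1%, 19.8% and 18.7% of Srsf5 counts in Ctrl Cere and 21.3%, 23.2% and 22.9% in Upf3b-KO, a relative log2 change of 0.24 (SE 0.04, diffSpliceDGE adjusted p = 0.0159). In FC it went from 18.4% ± 0.70 to 21.1% ± 0.54 without overlap, and the relative change of 0.20 (SE 0.04) did not pass (diffSpliceDGE adjusted p = 0.132). With limma's diffSplice it passed in both regions (limma adjusted p 0.00432 in FC and 4.63e-04 in Cere, background 1.88% and 1.61%), and the retained_intron type of Srsf11 passed lower in Cere (limma adjusted p = 0.0232, background 5.85%). The remaining 8 members ranged from −0.45 to 0.35 in FC and from −0.54 to 0.10 in Cere.

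Single transcripts were tested next. Of the 84 member transcripts, 59 passed the filter on low counts in FC and 61 in Cere. In FC 15 were called, 12 higher and 3 lower (background 8.67% and 7.68% of 42318 transcripts), and in Cere 20, 6 higher and 14 lower (background 12.3% and 10.3% of 44388). The FC count was 7 without Upf3b-KO replicate 2 and 9 without Upf3b-KO replicate 3 or Ctrl replicate 2. With the replicate number as a block the counts were 8 in FC, 5 higher and 3 lower, and 10 in Cere, 2 higher and 8 lower. Without the filter on low counts the FC count was 7, with 4 higher and 3 lower. With the shallow library the Cere count was 9, with 2 higher and 7 lower. Not all of the rises named below were thus called in these settings. Of the 12 decay-type transcripts tested, 6 were higher and 1 lower in FC (background 8.91% and 1.96% of 2502), and 4 higher and 1 lower in Cere (background 9.52% and 2.99% of 2774). Of the 23 coding transcripts, 3 were higher and 2 lower in FC (background 10.2% and 10%), and none higher and 10 lower in Cere (background 15.6% and 12.9%). Of the retained_intron transcripts, 2 of 21 were higher in FC (background 2.28%), and 1 of 23 was higher and 3 lower in Cere (background 2.96% and 6.39%). Those higher in FC were ENSMUST00000138484 of Srsf2 and ENSMUST00000153056 of Srsf5 (0.17), and those lower in Cere were ENSMUST00000147265 of Srsf3 (−0.69), ENSMUST00000204013 of Tra2a (−0.56) and ENSMUST00000133090 of Srsf11 (−0.41). The filter kept transcripts with counts in 1 genotype, so a count over tested transcripts does not describe all 84.

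Among the decay-type transcripts, 3 were higher in both regions. With the replicate number as a block only 2 member transcripts of any type were higher in Cere, so these 3 cannot all have been called there. The same holds with the shallow library. The Srsf3 transcript ENSMUST00000037776 had 19.8, 18.7, 25.5 and 17.6 CPM in Ctrl FC and 36.2, 34.8, 46.8 and 35.3 CPM in Upf3b-KO FC. In Cere it had 34.9, 38.3, 32.6 and 39.5 CPM in Ctrl and 44.0, 46.8 and 47.0 CPM in Upf3b-KO. Its log2 fold change was 0.84 (SE 0.14, edgeR adjusted p = 4.57e-03) in FC and 0.34 (SE 0.07, edgeR adjusted p = 0.0151) in Cere, while the coding transcript ENSMUST00000130216 fell by 0.42 and 0.70. The decay form of Srsf3 thus gained CPM while the coding form lost it in the same libraries. Of the 2594 nt decay transcript, 30.1% of 50-base words also occur in other genes, mostly the pseudogene Srsf3-ps, which was listed at 0.312 to 0.539 CPM as a group mean. The Srsf4 transcripts ENSMUST00000134943 and ENSMUST00000129966 also rose in both regions. The former had 1.56, 1.87, 2.94 and 2.77 CPM in Ctrl FC and 4.998, 6.42, 5.35 and 5.41 CPM in Upf3b-KO FC, and in Cere 2.61, 2.67, 2.13 and 2.61 CPM in Ctrl and 7.10, 7.19 and 5.40 CPM in Upf3b-KO. Its log2 fold changes were 1.21 (SE 0.24) and 1.39 (SE 0.18), and those of the latter 1.39 (SE 0.36) and 1.72 (SE 0.49). The antisense gene Gm12992 shares 13.8% and 19.0% of their words and had group means of 1.16 to 2.73 CPM.

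Of the remaining decay-type calls, those of Srsf1, Srsf6, Srsf11 and Tra2b came in a single region and that of Srsf2 in both. The difference between the regions was not tested for single transcripts. ENSMUST00000134824 of Srsf1 was higher in FC, from 3.87 ± 0.69 to 6.50 ± 0.76 CPM (edgeR adjusted p = 0.0300), and stood at 7.997 ± 1.4 and 7.94 ± 1.5 CPM in Cere. ENSMUST00000017065 of Srsf6 was higher in FC (0.87, SE 0.24, edgeR adjusted p = 0.0472), with 0.42 (SE 0.24) in Cere. ENSMUST00000126716 of Srsf11 was higher in FC by 1.70 (SE 0.46, edgeR adjusted p = 0.0408), from 0.272 ± 0.036 to 0.925 ± 0.49 CPM, and differed by 1.78 (SE 0.56) in Cere without passing (edgeR adjusted p = 0.0654). ENSMUST00000162413 of Tra2b was higher in Cere by 0.89 (SE 0.21, edgeR adjusted p = 0.0205), from 7.71 ± 1.8 to 14.3 ± 1.4 CPM, and in FC its 0.83 (SE 0.25) did not pass (edgeR adjusted p = 0.0602). Of the words of this transcript, 43.7% also occur in other genes. ENSMUST00000176834 of Srsf2 was lower in both, with log2 fold changes of −5.33 (SE 0.72) and −3.82 (SE 0.62), from 3.51 ± 0.95 to 0.0877 ± 0.070 CPM in FC and from 2.67 ± 1.4 to 0.182 ± 0.017 CPM in Cere. Its Upf3b-KO values in FC are near the floor of 3 counts.

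Outside the decay type, the Srsf5 transcript ENSMUST00000125814, annotated as coding with no defined reading frame, rose in both regions (background 4.54% and 6.94% of that type). It had 0.722, 1.70, 0.912 and 0.861 CPM in Ctrl FC and 2.25, 3.37, 3.22 and 2.91 CPM in Upf3b-KO FC. In Cere it had 0.943, 1.25, 1.26 and 1.29 CPM in Ctrl and 3.65, 1.73 and 3.42 CPM in Upf3b-KO. Its log2 fold changes were 1.42 (SE 0.32) and 1.29 (SE 0.31). The groups did not overlap. The retained_intron transcript ENSMUST00000138484 of Srsf2 rose by 1.73 (SE 0.13) in FC and 1.75 (SE 0.12) in Cere. The coding transcripts that were higher in FC were ENSMUST00000107920 of Srsf1 (1.07, SE 0.30), ENSMUST00000053819 of Srsf4 (0.36, SE 0.05) and ENSMUST00000072875 of Srsf11 (0.20, SE 0.05), the last 2 being the leading coding forms of their genes. In Cere the 10 coding transcripts that were lower belonged to Srsf1, Srsf2, Srsf3, Srsf5, Srsf6, Srsf7 and Tra2b, and their log2 fold changes ran from −0.76 for ENSMUST00000023564 of Tra2b to −0.15 for ENSMUST00000130411 of Srsf6.

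**Figure D5:**
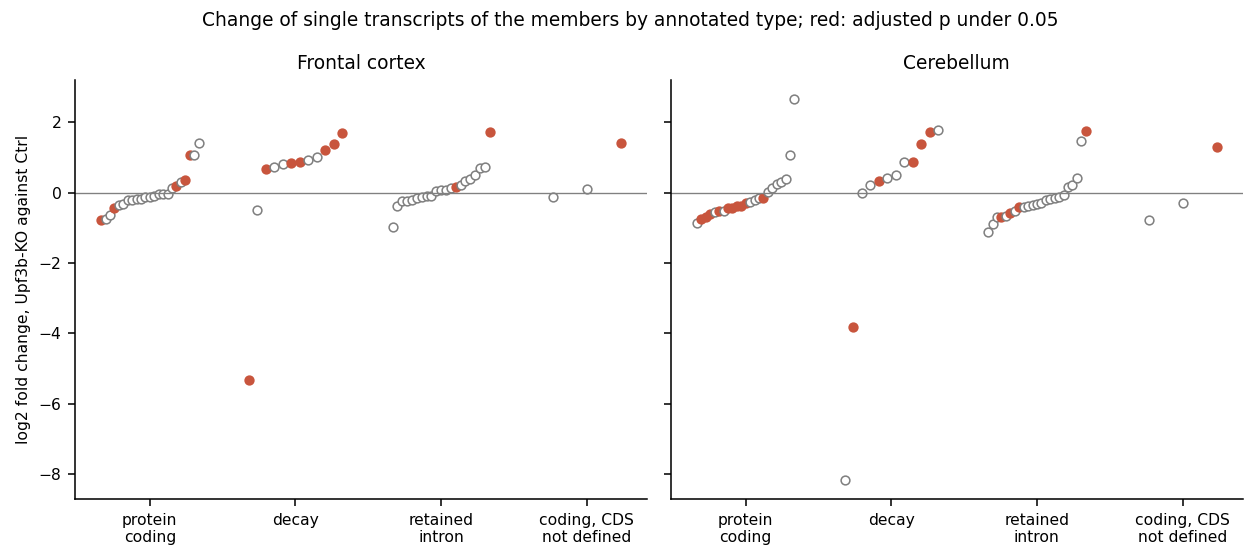
Log2 fold change of every tested member transcript, Upf3b-KO against Ctrl, grouped by annotated type, with FC on the left and Cere on the right. Red points passed an adjusted p of 0.05. In FC 10 of 12 decay-type transcripts and in Cere 9 of 12 lie above 0, and the red points far below 0 are the Srsf2 transcript ENSMUST00000176834. The lowest open point in Cere is ENSMUST00000136914 of Srsf2, listed at 0 in all 3 Upf3b-KO libraries, so its plotted fold is no measured size.

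Whether the usage of the decay type responded differently in the regions was tested as an interaction over all 15 deep libraries. None of the 9 tested members passed diffSpliceDGE with adjustment (background 1.12% of 2578 decay types), and 1 of the 9, Srsf2, had an unadjusted p under 0.05, a share close to the background of 12.8%. The estimates ran from −1.93 (SE 0.78) for Srsf2 to 0.49 (SE 0.35) for Srsf4, and neither of these passed. With limma's diffSplice and with each other alternative the count was also 0. Between Ctrl Cere and Ctrl FC none of the 9 passed either (background 5.22% of 1935), with 3 members at an unadjusted p under 0.05 (background 18.2%). These were Tra2a (1.21, SE 0.42), Srsf2 (−0.86, SE 0.25) and Srsf3 (0.28, SE 0.08), and limma's diffSplice called the same 3 with adjusted p 0.0227, 0.0117 and 0.0125 (background 18.6%). The Ctrl libraries of these contrasts are those of the genotype comparisons.

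Related genes were examined by lists. Of 15 other SR and SR-related splicing factors, 4 were higher and 4 lower at gene level in FC, shares close to the backgrounds of 28% and 25.3%. In Cere 2 were higher and 10 lower (background 33.1% and 31.3%). The median log2 fold change of the list was −0.01 in FC and −0.25 in Cere. Srsf9, an SR protein with a short tail, was the highest in both, at 0.37 (SE 0.04) and 0.55 (SE 0.04), and Pnisr the lowest in Cere at −0.54 (SE 0.03). Of 10 kinases, phosphatase partners and import receptors of SR proteins, 4 were higher and 1 lower in FC and 2 higher and 5 lower in Cere, against the same backgrounds. Clk4, a kinase of SR tails, was higher in both at 0.36 (SE 0.04) and 0.37 (SE 0.04). For the decay type, 2 of 14 tested genes of these lists passed higher in FC (background 3.86%) and 2 of 17 in Cere (background 3.19%). Rbm39 passed in both regions, with 6.02% ± 0.52 and 14.3% ± 2.5 of its counts in Ctrl and Upf3b-KO FC and 7.47% ± 0.96 and 17.6% ± 1.7 in Cere. U2af1, a subunit of the factor that reads the 3′ splice site, passed in Cere, at 8.75% ± 2.9 and 18.4% ± 2.3. The kinase Clk1 passed in FC, at 22.1% ± 5.8 and 37.9% ± 5.8. No decay type of these lists passed lower in diffSpliceDGE.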

How the data were processed

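RNA from frontal cortex and cerebellum was depleted of ribosomal RNA, turned into SMART-Seq libraries and read from both ends. The authors aligned to GRCm39 with STAR 2.5.2b and estimated transcripts with RSEM against an Ensembl annotation. The submitters' processing notes also name Subread, featureCounts and DESeq2. The deposited values are expected counts per transcript, not scaled for depth or length, which the model divides among similar transcripts. Libraries were grouped by their labels. No column lacked a sample. Types and coordinates came from GENCODE vM39, which matched 141102 of 142435 identifiers and left 1333 unmatched. It is not the release the authors used.

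Counts were rounded, summed per gene or per type where stated, filtered with filterByExpr (minimum count 10, minimum total 15) and scaled by TMM. Genes and transcripts were tested with edgeR 4.0.16 (glmQLFTest) in R 4.3.3, and types summed per gene with diffSpliceDGE. All p-values were adjusted by Benjamini-Hochberg over all features, and a call is an adjusted p under 0.05. The SE is the log2 fold change divided by the square root of F. For usage this SE can be smaller than the error behind the p-value. The decay type of Srsf11 in Cere, at 1.47 (SE 0.27), had an unadjusted diffSpliceDGE p of 0.0137. The retained_intron type of Srsf5 in FC, at 0.20 (SE 0.04), had an unadjusted diffSpliceDGE p of 0.00246. CPM uses library totals, and against CPM ratios TMM lowers log2 fold changes by a median of 0.0756 in FC and 0.0497 in Cere. TPM values were computed from the counts and annotated lengths. EBSeq, used in the study for transcripts, was not run. Shared 50-base words were searched in all annotated transcripts.

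All 10 members are described. The transcripts named are the most abundant coding, decay-type and retained_intron transcript of each member and those called in either region. The members and the gene lists were chosen with earlier results of these data known. Alternatives were limma 3.58.1 (voom, diffSplice), DESeq2 1.42.0, another scaling, filter, threshold (adjusted p under 0.01 and over 2-fold) or definition of the decay type (a stop codon with an exon junction 50 nt or more downstream), length-scaled counts, the shallow library, a replicate block and leaving out each library. Scaling to library totals, the gene count offset and the gene-level interaction were added after seeing the data.

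On simulated counts, 100 types were changed by 0.5 and 100 by 1 on the log2 scale. The usage test called 25% and 90% of them in FC, among 14214 types in all, and 24% and 80% in Cere, among 15271. The changed types had over 100 counts per library, and a single fixed spread was used. These shares do not describe decay types with fewer counts, such as those of Srsf11 and Tra2a (0.567 and 0.855 CPM in Ctrl FC). The pairing of libraries by number was checked by correlating deviations from group means. By the study's account both regions came from the same 4 Upf3b-null and 4 Ctrl mice. Which libraries share a mouse is not labelled, and the fits across regions took libraries as independent.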

Additional observations from a re-analysis of the deposited data

Results flagged for a closer look

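The gene-level effect of genotype differed between the regions, by the interaction test added after seeing the data (edgeR's quasi-likelihood test, 15 libraries taken as independent although the regions share mice), for 9 members. The effect in Cere minus that in FC was −0.33 (SE 0.04) for Srsf1, −0.36 (SE 0.02) for Srsf3, −0.34 (SE 0.05) for Srsf4, −0.32 (SE 0.03) for Srsf5, −0.15 (SE 0.05) for Srsf6, −0.35 (SE 0.04) for Srsf7, −0.31 (SE 0.04) for Srsf11 and −0.34 (SE 0.05) for Tra2b. For Srsf2 it was 0.15 (SE 0.05), since that gene fell more in FC. The edgeR adjusted p ran from 2.25e-12 for Srsf3 to 0.0107 for Srsf2, and the call of Srsf6 was lost without Upf3b-KO Cere replicate 3 (edgeR adjusted p = 0.0798).

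A single library stood far from the 3 others of its group in 3 of 60 tests, and chance alone flags about 1 in 20. Upf3b-KO FC replicate 3 held 23.98% of Srsf3 counts on the decay type, against 17.4% to 18.0% in the others, and without it the 2 FC calls for the decay type still stood at 2. Ctrl FC replicate 1 had 220.2 CPM of Srsf3, against 221.9 to 222.2. Upf3b-KO FC replicate 4 had 24.8 CPM of Tra2a, against 27.9 to 28.5, and without it the FC call for Tra2a was lost (edgeR adjusted p = 0.121).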

How the results depend on the processing

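The threshold of an adjusted p under 0.01 with over 2-fold change left 0 members at gene level in FC, in Cere, between the Ctrl regions and in the interaction, and 3 member transcripts in FC and 3 in Cere. Scaling to library totals left 4 of 7 gene calls in FC and turned the sign of Srsf5 (0.04), Srsf6 (0.0432) and Srsf7 (0.0600). Leaving out 1 library gave −0.0344 to 0.0103 for Srsf7, positive without Ctrl replicate 3. None of these passed. Without a filter 7 member transcripts were called in FC. With the shallow library 9 were called in Cere, where it adds values near its floor of 46.2 CPM. For the usage of the decay type in FC, limma's diffSplice gave 8 calls and length-scaled counts 4. Between the Ctrl regions they gave 3 and 1. With the decay class set by stop and junction, the usage call of Srsf2 in Cere was lost (−0.74, diffSpliceDGE adjusted p = 0.867) and its interaction turned to 0.29. The cause was not tested.

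Correlations between libraries of equal number ran from −0.0145 to 0.131 between genotypes, where the mice differ, and in Cere each of the 3 pairs correlated best with its own number. Between the regions, where libraries could share a mouse, they ran from −0.0841 to 0.0203. There only Upf3b-KO replicate 2 correlated best with its own number. The numbers were therefore not taken to pair the libraries. With the replicate block 8 member transcripts were called in FC and 10 in Cere, and the usage call of Srsf4 in Cere was lost (diffSpliceDGE adjusted p = 0.0673).

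Leaving out each library in turn gave 5 to 7 gene calls in FC and 9 to 10 in Cere, 7 (without Upf3b-KO replicate 2) to 13 transcript calls in FC and 14 to 20 in Cere, 2 usage calls in FC in each case and 3 to 5 in Cere, 0 for the usage interaction, 0 to 1 between the Ctrl regions for usage (1, Srsf3, without replicate 3 of either) and 9 for genes, and 8 to 9 for the gene interaction. Without Upf3b-KO FC replicate 2 or 3 or Ctrl replicate 2, the FC transcript count fell to 7, 9 and 9.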
